A study of Rattus norvegicus with 9 samples.

Results

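The integrated stress response and serine synthesis genes are 10 genes, chosen by name, of the 14217 genes with a symbol of their own on the Affymetrix Rat Genome 230 2.0 array: Atf4, Ddit3, Trib3, Sesn2, Asns, Phgdh, Psat1, Shmt2, Herpud1 and Xbp1. All 13 probe sets that the platform annotation gives to these genes were taken, with 3 for Trib3, 2 for Sesn2 and 1 for each of the other 8 genes. The rule that took the probe sets used no measured value, but the 10 genes themselves were chosen with earlier results of these data known. Counts and medians of the 10 genes set beside those of all genes are therefore a description and no test. The study set retinal progenitor cells made from rat embryonic stem cells (rESCs) against primary ones, in 3 groups of 3 biological replicates with 1 array each.

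rESC-RPC2 came from the rESC line DA8-16 of DA rats, through aggregates grown in suspension with Matrigel and the Wnt inhibitor IWR-1e, with adherent culture from day 14 and harvest on day 16, in medium with knockout serum replacement, FBS, nonessential amino acids, pyruvate and 2-mercaptoethanol. rESC-RPC1 came from the same line and the same kind of aggregates, with adherent culture from day 10, a change on day 14 to medium with N2 supplement, FBS, nonessential amino acids and pyruvate, and harvest on day 16. P-RPC were neural retina cells that papain had freed from SD rat pups on postnatal day 1, held on ice and lysed, with no sort or culture step described. Both rESC-RPC groups rest on 1 rESC line. Against P-RPC, the rat strain and growth in culture cannot be told apart from the cell type, and between rESC-RPC2 and rESC-RPC1 the medium cannot be told apart from the time in adherent culture.

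The integrated stress response starts when a kinase phosphorylates the translation factor eIF2alpha, which slows protein synthesis as a whole while translation of the transcription factor ATF4 goes up. ATF4 then turns on genes for amino acid synthesis, amino acid transport and tRNA charging, together with DDIT3 (CHOP), TRIB3 and SESN2, and in cells of the nervous system serine made by PHGDH and PSAT1 feeds glycine, D-serine and one-carbon metabolism. HERPUD1 and XBP1 belong to the unfolded protein response of the endoplasmic reticulum (ER), one branch of which, through the kinase PERK, feeds into the same eIF2alpha switch. Much of ATF4 control acts on translation and XBP1 is activated by splicing of its mRNA, neither of which these arrays measured.

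The promoters of Trib3, Herpud1 and Xbp1 are printed because, of the 10 promoter windows searched, these held a response element of the pathway. Each is the RefSeq window of the GRCr8 build from 250 bases before to 50 bases after the gene's start, written 5′ to 3′ along the gene, with the matched element in capitals. Trib3 lies at chr3:161275484-161275783 on the minus strand, Herpud1 at chr19:10614658-10614957 on the minus strand and Xbp1 at chr14:84604373-84604672 on the plus strand.
Trib3: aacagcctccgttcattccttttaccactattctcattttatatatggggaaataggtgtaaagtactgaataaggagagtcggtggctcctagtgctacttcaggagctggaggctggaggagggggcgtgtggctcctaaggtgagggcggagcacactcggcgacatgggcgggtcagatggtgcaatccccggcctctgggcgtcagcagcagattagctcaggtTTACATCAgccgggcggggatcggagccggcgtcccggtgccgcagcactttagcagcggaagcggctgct
Herpud1: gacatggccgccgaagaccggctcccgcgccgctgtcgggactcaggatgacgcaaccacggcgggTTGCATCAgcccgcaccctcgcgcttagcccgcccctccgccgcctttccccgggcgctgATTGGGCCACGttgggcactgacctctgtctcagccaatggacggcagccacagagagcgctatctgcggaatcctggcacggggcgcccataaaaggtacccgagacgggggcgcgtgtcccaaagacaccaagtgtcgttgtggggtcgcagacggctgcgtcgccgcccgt
Xbp1: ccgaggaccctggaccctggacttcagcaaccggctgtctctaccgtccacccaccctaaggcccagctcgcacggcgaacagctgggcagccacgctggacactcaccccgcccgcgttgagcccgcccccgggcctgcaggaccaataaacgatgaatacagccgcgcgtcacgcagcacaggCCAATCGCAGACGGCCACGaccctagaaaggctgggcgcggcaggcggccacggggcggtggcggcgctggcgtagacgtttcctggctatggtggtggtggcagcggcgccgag
The capitals in Trib3, and the first of the pair in Herpud1, are the C/EBP-ATF response element (CARE, searched as TGATGNAA on both strands), which stands on the opposite strand in both and begins 21 and 184 bases before the start. The second run of capitals in Herpud1, 124 bases before the start, is ER stress response element II (ERSE-II, searched as ATTGG, any base, CCACG). The run in Xbp1, 65 bases before the start, is the ER stress response element (ERSE, searched as CCAAT and CCACG with 9 bases between them). None of these matches overlapped another. Over all 33469 promoter windows of the same length, 3.98% held a CARE, 0.0508% an ERSE-II and 0.0657% an ERSE, and the XBP1 site TGACGTGG was in 0.595% of them and in 0 of the 10 windows of these genes. A match here describes letters in a window and no binding.

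Values are signals made with the MAS 5.0 algorithm, on a linear scale, and each array had been scaled to the same trimmed mean of 500.2. A signal of 123, the median over all values, served as the detection threshold. Across 9956 genes tested with limma, a gene was called where the Benjamini-Hochberg adjusted p was under 0.05 and the fold change at least 2, and errors of log2 fold changes are moderated standard errors over 3 arrays a group. The 9 lens markers summed to at most 304 in rESC-RPC2 and 307 in rESC-RPC1, and to 116850, 1744 and 5248 in P-RPC replicates 1, 2 and 3, so results are also given without P-RPC replicate 1 where this changed a call. The 6 retinal progenitor markers measured summed to 7494 to 8643 in rESC-RPC2, 8631 to 10233 in rESC-RPC1 and 46302 to 49802 in P-RPC. Of these, Pax6 was under the threshold on all rESC-RPC2 arrays and Six3 on all 9 arrays, and Rax averaged 141 in rESC-RPC2. Lhx2, Six6 and Ccnd1 averaged 3387, 1429 and 3041 in rESC-RPC2, against 8683, 4944 and 15774 in P-RPC. The study reported Pax6 protein by staining in both rESC-RPC groups. It also reported RNA of Pax6, Rax, Six3, Six6 and Lhx2 by RT-qPCR, induced in the rESC-derived cells to levels under those of P-RPC. In these bulk samples, fewer cells of a type and less RNA per cell cannot be told apart.

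All 10 genes passed the filter on low values, which asked for at least 3 of the 9 arrays at the threshold. Trib3 passed through its rESC-RPC arrays alone, so a difference from P-RPC was built into its test. In rESC-RPC1 over P-RPC, 6 of the 10 genes were called higher and 0 lower, where 21.5% of all genes tested were called, 12% higher and 9.56% lower. In rESC-RPC2 over P-RPC, 6 were again called higher and 0 lower, beside 23.7% of all genes called, 10.7% higher and 13% lower. Asns, Phgdh, Psat1, Sesn2 and Trib3 were called in both, Herpud1 in rESC-RPC1 and Xbp1 in rESC-RPC2. Atf4, Ddit3 and Shmt2 were called in neither. Both comparisons use the same 3 P-RPC arrays. At an unadjusted p under 0.05 with no fold threshold, limma gave 1 gene lower in rESC-RPC1 over P-RPC, which was Atf4. It gave 0 lower in rESC-RPC2 over P-RPC. The methods' t-test, which also asked for a fold change of at least 2, called 0 lower in both. In rESC-RPC2 over rESC-RPC1, Herpud1 was called lower and 0 genes were called higher, beside 14.3% of all genes called, 9.25% lower and 5.02% higher. At an unadjusted p under 0.05 with no fold threshold, limma gave 2 genes higher there, Atf4 and Shmt2, both under a fold change of 2. The methods' t-test, with its fold threshold, called 0 higher. Under median centring Atf4 was called higher there (1.01) and Herpud1 was not called (-0.99).

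**Figure D1:**
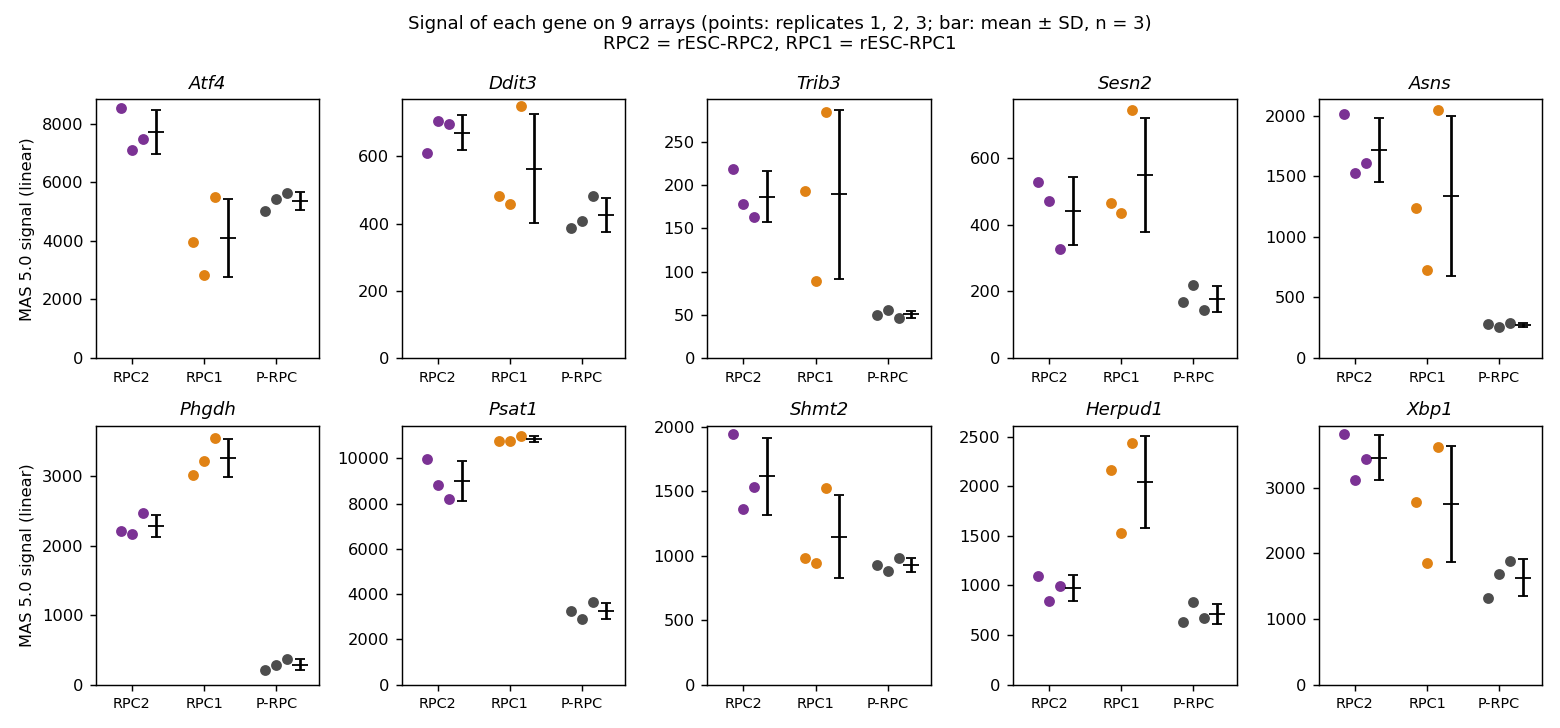
MAS 5.0 signal (linear, vertical axis from 0) of the tested probe set of each of the 10 genes, with 1 point per array for rESC-RPC2 (RPC2), rESC-RPC1 (RPC1) and P-RPC and bars for the mean and SD (n = 3). The P-RPC points of Asns (252 to 287) and Phgdh (215 to 372) lie far under those of both rESC-RPC groups, while those of Atf4 (5015 to 5624) overlap the wide rESC-RPC1 range (2850 to 5486).

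Of the 10 genes as tested, Phgdh differed most from P-RPC. Phgdh (probe set 1367811_at, chromosome 2) encodes phosphoglycerate dehydrogenase, which takes the glycolytic intermediate 3-phosphoglycerate into serine synthesis. Its signal was 2217, 2165 and 2466 in rESC-RPC2, 3018, 3210 and 3547 in rESC-RPC1 and 215, 281 and 372 in P-RPC. The 3 groups did not overlap, with rESC-RPC1 highest and P-RPC lowest. Phgdh rose 11.5-fold in rESC-RPC1 over P-RPC (log2 3.53 ± 0.17, adjusted p = 9.33e-08) and 8.08-fold in rESC-RPC2 over P-RPC (log2 3.01 ± 0.17, adjusted p = 2.35e-07). Between the rESC-RPC groups the log2 difference of -0.51 (95% interval -0.89 to -0.14, adjusted p = 0.0278) was under the fold threshold.

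Psat1 (1372665_at, chromosome 1) encodes the aminotransferase of the next step. Its signal was 9953, 8825 and 8204 in rESC-RPC2, 10754, 10772 and 11002 in rESC-RPC1 and 3254, 2898 and 3633 in P-RPC. Here too the groups were separate, with an SD of 138 over the rESC-RPC1 arrays. Psat1 rose 3.34-fold in rESC-RPC1 over P-RPC (log2 1.74 ± 0.09, adjusted p = 1.65e-07) and 2.76-fold in rESC-RPC2 over P-RPC (adjusted p = 4.77e-07). The difference of rESC-RPC2 over rESC-RPC1 was -0.27 on the log2 scale (95% interval -0.48 to -0.07, adjusted p = 0.0304).

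Shmt2 (1388695_at, chromosome 7) encodes the mitochondrial enzyme that splits serine into glycine and a one-carbon unit. Its signal was 1947, 1365 and 1534 in rESC-RPC2, 982, 941 and 1523 in rESC-RPC1 and 930, 878 and 986 in P-RPC. The rESC-RPC2 arrays lay above every P-RPC array, while of the rESC-RPC1 arrays replicate 3 did and the other 2 fell inside the P-RPC range. In rESC-RPC2 over P-RPC the log2 difference was 0.78 (95% interval 0.37 to 1.19, adjusted p = 0.00377), short of the fold threshold. In rESC-RPC1 over P-RPC it was 0.27 (-0.14 to 0.68, adjusted p = 0.231), and in rESC-RPC2 over rESC-RPC1 it was 0.51 (0.10 to 0.92, adjusted p = 0.041).

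Asns (1387925_at, chromosome 4) encodes asparagine synthetase, a classic target of ATF4. Its signal was 2017, 1527 and 1611 in rESC-RPC2, 1240, 730 and 2045 in rESC-RPC1 and 279, 252 and 287 in P-RPC. Every rESC-RPC array lay above the P-RPC arrays, and the rESC-RPC1 arrays spread on both sides of those of rESC-RPC2. Asns rose 6.26-fold in rESC-RPC2 over P-RPC (log2 2.65 ± 0.29, adjusted p = 2.33e-05) and 4.50-fold in rESC-RPC1 over P-RPC (log2 2.17 ± 0.29, adjusted p = 0.000105). The 95% interval of rESC-RPC2 over rESC-RPC1 ran from -0.17 to 1.12 on the log2 scale (adjusted p = 0.202).

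Atf4 (1367624_at, chromosome 7), the transcription factor at the centre of the response, had signals of 8537, 7096 and 7477 in rESC-RPC2, 3973, 2850 and 5486 in rESC-RPC1 and 5015, 5433 and 5624 in P-RPC. The rESC-RPC2 arrays were the highest of all 9, and 2 of the 3 rESC-RPC1 arrays were under every P-RPC array. In rESC-RPC1 over P-RPC the log2 difference was -0.43 (95% interval -0.85 to -0.02, adjusted p = 0.0663), with a mean under that of P-RPC. In rESC-RPC2 over P-RPC it was 0.52 (0.11 to 0.94, adjusted p = 0.0313). In rESC-RPC2 over rESC-RPC1 it was 0.96 (0.54 to 1.37, adjusted p = 0.00186), just under the fold threshold, and it came to 1.19 without replicate 3 of rESC-RPC1 and to 1.01 without replicate 2 of rESC-RPC2, where it was called.

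Ddit3 (1369590_a_at, chromosome 7) encodes CHOP, a transcription factor that ATF4 induces and that takes part in stress-induced cell death. Its signal was 610, 704 and 697 in rESC-RPC2, 482, 458 and 751 in rESC-RPC1 and 387, 407 and 481 in P-RPC. The rESC-RPC2 arrays were all above the P-RPC arrays, whereas 1 of the rESC-RPC1 arrays fell inside the P-RPC range. Its log2 difference was 0.66 in rESC-RPC2 over P-RPC (95% interval 0.26 to 1.06, adjusted p = 0.00835), 0.38 in rESC-RPC1 over P-RPC (-0.02 to 0.78, adjusted p = 0.0937) and 0.28 in rESC-RPC2 over rESC-RPC1 (-0.11 to 0.68, adjusted p = 0.217).

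Trib3 encodes a pseudokinase that ATF4 and CHOP induce and that holds the response back. Its tested probe set (1386321_s_at, chromosome 3) gave 219, 179 and 163 in rESC-RPC2, 194, 89.5 and 285 in rESC-RPC1 and 49.5, 55.2 and 46.6 in P-RPC. No P-RPC array reached the detection threshold, and neither did replicate 2 of rESC-RPC1. Trib3 was called higher than in P-RPC in rESC-RPC2 (adjusted p = 0.00106) and in rESC-RPC1 (adjusted p = 0.00175) on the signals as measured. Set against the threshold it was at least 1.51-fold higher in rESC-RPC2 and at least 1.39-fold higher in rESC-RPC1. With values under the threshold raised to it, it was called in neither (adjusted p = 0.0636 in rESC-RPC2 and 0.0553 in rESC-RPC1). The difference of rESC-RPC2 over rESC-RPC1 was 0.12 on the log2 scale (95% interval -0.68 to 0.92), and it came to -0.34 without replicate 2 of rESC-RPC1. The other Trib3 probe sets had the same order of groups against P-RPC. 1370695_s_at gave 159, 90.3 and 127 in rESC-RPC2, 144, 45.0 and 182 in rESC-RPC1 and 8.37, 2.68 and 3.70 in P-RPC. 1370694_at gave 116, 56.4 and 62.2 in rESC-RPC2, 78.9, 37.8 and 154 in rESC-RPC1 and 3.64, 28.1 and 31.9 in P-RPC, with 1 of 9 arrays at the threshold.

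Sesn2 (1391607_at, chromosome 5) encodes Sestrin 2, which restrains mTORC1 when leucine is short. Its signal was 527, 470 and 326 in rESC-RPC2, 463, 435 and 745 in rESC-RPC1 and 169, 218 and 143 in P-RPC. Both rESC-RPC groups lay wholly above P-RPC and overlapped each other. Sesn2 rose 3.06-fold in rESC-RPC1 over P-RPC (log2 1.61 ± 0.25, adjusted p = 0.000282) and 2.48-fold in rESC-RPC2 over P-RPC (log2 1.31 ± 0.25, adjusted p = 0.000991). In rESC-RPC2 over rESC-RPC1 the 95% interval was -0.85 to 0.25 on the log2 scale. The second Sesn2 probe set, 1396901_at, stayed between 4.75 and 68.8 on the 9 arrays, under the threshold on all of them, and was not tested.

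Of the 2 ER genes, Herpud1 was called in rESC-RPC1 and Xbp1 in rESC-RPC2, each over P-RPC. Herpud1 (1367741_at, chromosome 19) encodes an ER membrane protein of ER-associated degradation, and its promoter held both a CARE and an ERSE-II. Its signal was 1100, 841 and 994 in rESC-RPC2, 2164, 1528 and 2435 in rESC-RPC1 and 632, 829 and 674 in P-RPC. The rESC-RPC1 arrays stood above all others, and the lowest rESC-RPC2 array lay just over the highest P-RPC array. Herpud1 rose 2.84-fold in rESC-RPC1 over P-RPC (95% interval of the log2 difference 1.11 to 1.90, adjusted p = 4.34e-05). In rESC-RPC2 over rESC-RPC1 it fell by 1.04 ± 0.18 (log2 scale) (adjusted p = 0.000796), a call that did not hold without replicate 1 of rESC-RPC1 (-0.99), replicate 3 of rESC-RPC1 (-0.90) or replicate 2 of rESC-RPC2 (-0.94) or under median centring (-0.99), since the difference then lay under the fold threshold. In rESC-RPC2 over P-RPC the log2 difference was 0.46 (95% interval 0.07 to 0.85, adjusted p = 0.0422).

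Xbp1 (1371249_at, chromosome 14) encodes a transcription factor of the unfolded protein response that raises chaperone and secretory pathway genes, and its promoter held an ERSE. Its signal was 3811, 3124 and 3433 in rESC-RPC2, 2776, 1852 and 3620 in rESC-RPC1 and 1326, 1693 and 1878 in P-RPC. The rESC-RPC2 arrays lay above every P-RPC array, and replicate 2 of rESC-RPC1 lay among the P-RPC arrays. Xbp1 rose 2.13-fold in rESC-RPC2 over P-RPC (log2 1.09 ± 0.21, adjusted p = 0.00119). Without P-RPC replicate 1, which carried the lens transcripts, this came to 0.95 and was no longer called. In rESC-RPC1 over P-RPC the log2 difference was 0.71 (95% interval 0.24 to 1.19, adjusted p = 0.0144), and in rESC-RPC2 over rESC-RPC1 it was 0.38 (-0.10 to 0.85, adjusted p = 0.169).

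The median log2 difference of the 10 genes was 1.56 in rESC-RPC1 over P-RPC, 1.20 in rESC-RPC2 over P-RPC and 0.20 in rESC-RPC2 over rESC-RPC1, beside -0.01, -0.02 and -0.03 over all genes tested. All 10 genes had every rESC-RPC2 array above every P-RPC array and 0 had every array under, where the arrays were apart for 72.9% of genes tested, 35.2% higher and 37.7% lower. In rESC-RPC1 over P-RPC 6 of the 10 were apart and higher, beside 66.4% of genes tested, 32.7% higher and 33.7% lower. Between rESC-RPC2 and rESC-RPC1 the arrays were apart for Atf4, higher in rESC-RPC2, and for Herpud1, Phgdh and Psat1, lower in rESC-RPC2, beside 53.9% of genes tested, 24.2% higher and 29.6% lower.

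**Figure D2:**
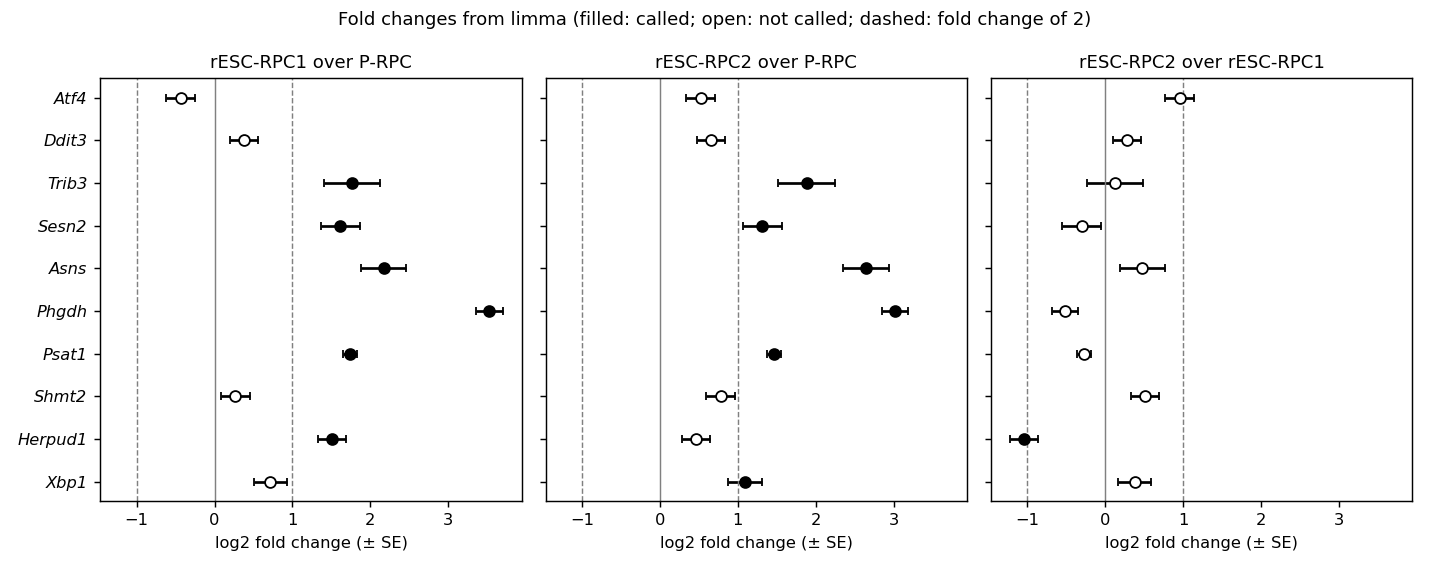
Log2 fold change from limma (horizontal axis, bars ± SE) of each gene in 3 comparisons, filled where called, with dashed lines at a fold change of 2. Phgdh, at 3.53 and 3.01, lies farthest right of the P-RPC comparisons, and in rESC-RPC2 over rESC-RPC1 Atf4 (0.96) and Herpud1 (-1.04) lie at opposite ends.

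Markers of other cell types differed between the groups along with these genes. The 7 mesenchymal markers measured summed to 9151 to 16631 in rESC-RPC2, 17460 to 42774 in rESC-RPC1 and 685 to 757 in P-RPC. In both rESC-RPC groups 5 of the 7 were at the threshold, and Lum and Dcn were under it. These 5 were split between the rESC-RPC groups. Col1a1, Col1a2 and Col3a1 were called lower in rESC-RPC2. Acta2 (1539 in rESC-RPC2, 869 in rESC-RPC1) and Tagln (6914 and 3993) had higher means in rESC-RPC2 and were not called. The 9 astrocyte and radial glia markers summed to 35798 to 36942 in rESC-RPC2, 38374 to 47862 in rESC-RPC1 and 14957 to 18753 in P-RPC, and Vim averaged 24328 of the sum in rESC-RPC2, 26290 in rESC-RPC1 and 9984 in P-RPC. Gfap, an astrocyte marker, averaged 979 in rESC-RPC2, 3689 in rESC-RPC1 and 59.1 in P-RPC. With S100b and Aqp4 it was called lower in rESC-RPC2 over rESC-RPC1, though the Aqp4 arrays of these groups overlapped. The other 4 tested, Slc1a3, Fabp7, Vim and Nes, were not called there, and Fabp7 differed by 0.23 in the other direction. The 7 neuron markers, all detected everywhere, summed to 48692 to 53883 in rESC-RPC2, 18962 to 27383 in rESC-RPC1 and 23497 to 27645 in P-RPC. The 6 proliferation markers summed to 18375 to 21824 in rESC-RPC2, 21804 to 23850 in rESC-RPC1 and 39241 to 42674 in P-RPC. The 6 Muller glia markers summed to 2070 to 2704 in rESC-RPC2, 7122 to 15297 in rESC-RPC1 and 22072 to 23004 in P-RPC, where Dkk3 averaged 15009. The members went both ways in rESC-RPC1 over P-RPC, with Dkk3 and Rlbp1 called lower and Clu and Abca8a called higher, and all 6 were called lower in rESC-RPC2 over rESC-RPC1. Microglia, photoreceptor and red cell markers were all under the threshold in both rESC-RPC groups and summed to 977 to 1139, 5827 to 6927 and 14022 to 15155 in P-RPC. On the P-RPC arrays 3 to 4 of 7 microglia, 3 of 5 photoreceptor and 1 of 3 red cell markers were at the threshold. The part of these cell types in the differences of the 10 genes was not tested.

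The replicates of rESC-RPC1 differed from each other in most of the 10 genes. Replicate 3 was the highest of the 3 in 10 of the 10 genes, beside 37.8% of all genes tested, and replicate 2 the lowest in 8 of 10, beside 39.0%. Replicate 3 exceeded replicate 2 by 3.18-fold for Trib3, 2.80-fold for Asns, 1.95-fold for Xbp1 and 1.93-fold for Atf4. Sesn2, Ddit3, Shmt2 and Herpud1 were between 1.59-fold and 1.71-fold higher in replicate 3. Phgdh (1.11-fold) and Psat1 (1.02-fold) had the smallest differences between these replicates among the 10 genes. Over all genes tested the median of this log2 difference was 0.00 and the 10th and 90th percentiles were -0.58 and 0.58. In rESC-RPC2, replicate 1 was the highest in 8 of the 10 genes, beside 41.7% of genes tested.

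On the same rESC-RPC1 arrays the mesenchymal sum was 28275, 17460 and 42774 in replicates 1, 2 and 3, the Muller glia sum 12010, 15297 and 7122 and the neuron sum 20604, 27383 and 18962. The array with the highest signals of the 10 genes was thus also the one with the highest mesenchymal and lowest Muller glia and neuron sums. Replicate 2 was lowest, replicate 1 in the middle and replicate 3 highest for the mesenchymal sum and for 8 of the 10 genes, all but Phgdh and Psat1, an order that 26.9% of genes tested shared. Replicate 3 was the highest for 4 of 5 mesenchymal and 5 of 6 proliferation markers tested and for 0 of 6 Muller glia and 0 of 7 neuron markers. It was also the highest for 18 of 20 tRNA charging genes, 16 of 19 ER chaperones and folding enzymes and 11 of 16 genes of ER-associated degradation and translocation. For other transcription factors and targets of the response it was 8 of 11, for amino acid transporters 7 of 11 and for other serine, glycine and one-carbon genes 8 of 13. Proline, aspartate and alanine enzymes had 4 of 7. The eIF2alpha kinases and phosphatase had 3 of 8 and the ATF6 branch and its relatives 2 of 5, near the 37.8% of all genes tested. What part cell type makeup had in the replicate pattern was not tested.

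**Figure D3:**
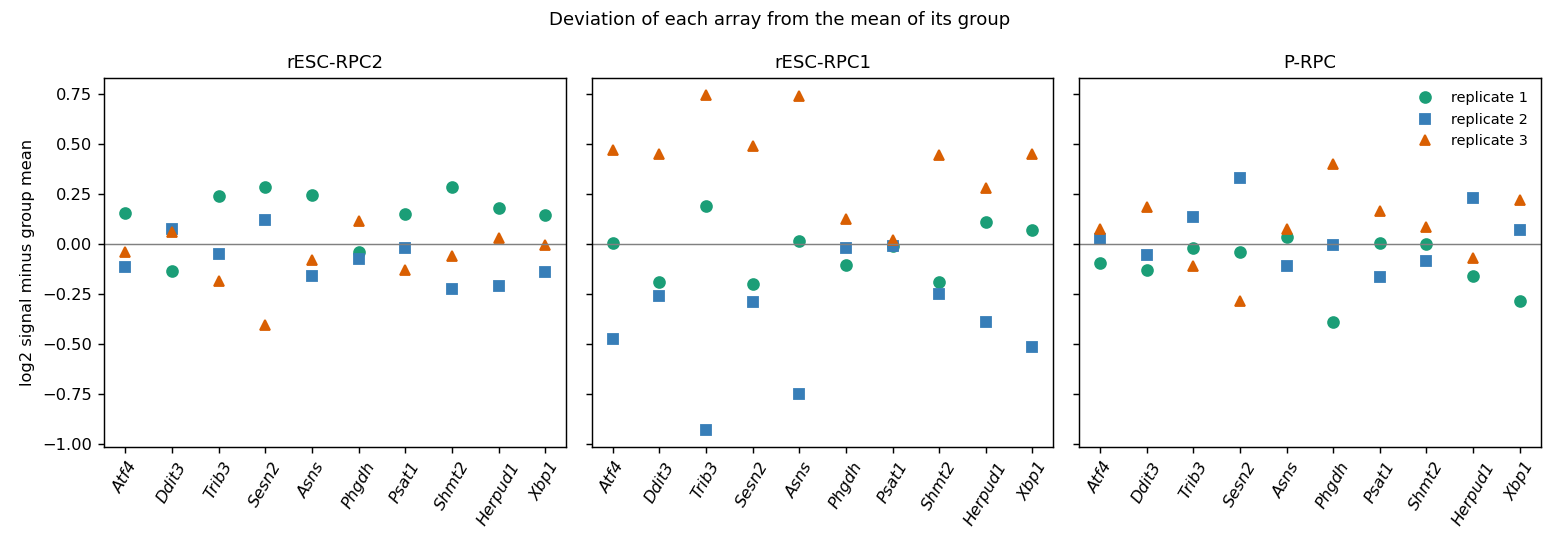
Deviation of each array's log2 signal from its group's mean (vertical axis) for the 10 genes, in rESC-RPC2, rESC-RPC1 and P-RPC, with a marker shape per replicate. In rESC-RPC1 replicate 3 (triangles) lies on top for all 10 genes and replicate 2 (squares) at the bottom for 8, with Phgdh and Psat1 close to 0.

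The genes around the 10 in the pathway did not all follow them. Over all genes tested, 12% were called higher and 9.56% lower in rESC-RPC1 over P-RPC. These shares were 10.7% and 13% in rESC-RPC2 over P-RPC, and 5.02% and 9.25% in rESC-RPC2 over rESC-RPC1. The counts of each list below stand beside these shares, and no list was tested as a set. Counts at an unadjusted p under 0.05 have a far larger background. With no minimum fold, limma called 5989, 6292 and 4805 of the 9956 genes in these comparisons even at an adjusted p under 0.05. The 8 genes of eIF2alpha kinases and the eIF2alpha phosphatase and its partners had 0 called in each comparison, and median log2 differences of 0.02 in rESC-RPC1 over P-RPC, 0.04 in rESC-RPC2 over P-RPC and 0.14 in rESC-RPC2 over rESC-RPC1. At an unadjusted p under 0.05, limma gave 2, 2 and 4 of them, of which 1, 0 and 1 were lower. The methods' t-test with the same fold threshold called 0. Eif2ak3, which encodes PERK, differed by 0.12 in rESC-RPC1 over P-RPC (adjusted p = 0.49) and by -0.10 in rESC-RPC2 over P-RPC (adjusted p = 0.558). Eif2ak4, which encodes the amino acid sensor GCN2, differed by -0.80 in rESC-RPC1 over P-RPC (adjusted p = 0.00339) and by -0.02 in rESC-RPC2 over P-RPC (adjusted p = 0.92). Of 20 tRNA charging genes, which are cytosolic tRNA synthetases and the tRNA export factor Xpot, 0 were called against P-RPC in either rESC-RPC group by limma or by the methods' t-test. At an unadjusted p under 0.05, limma gave 8 in rESC-RPC1, 7 of them higher, and 13 in rESC-RPC2, 12 of them higher. The medians were 0.16 and 0.38. In rESC-RPC2 over rESC-RPC1, 1 of the 20 was called, Qars1, which charges glutamine tRNA and fell by 1.22 (adjusted p = 5.87e-06). Without replicate 3 of rESC-RPC1, 3 of the 20 were called there, 2 higher and 1 lower.

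Of the 13 other serine, glycine and one-carbon genes tested, 0 were called in rESC-RPC1 over P-RPC, with 6 at an unadjusted p under 0.05, 5 of them lower. In rESC-RPC2 over P-RPC, 1 was called higher. This was Mthfd2, a mitochondrial folate enzyme, with signals of 696, 553 and 630 in rESC-RPC2, 223, 141 and 649 in rESC-RPC1 and 307, 233 and 267 in P-RPC. Its log2 difference of 1.22 in rESC-RPC2 over P-RPC (adjusted p = 0.0284) was not called when P-RPC replicate 2 or 3 or rESC-RPC2 replicate 1 or 3 was left out (adjusted p from 0.066 to 0.0841). Replicate 3 of rESC-RPC1 stood far above the other arrays of its group, and the call in rESC-RPC2 over rESC-RPC1 (1.19, adjusted p = 0.041) held when that array was left out and was lost when any of the other 8 was (adjusted p from 0.0544 to 0.128). Gldc, of the glycine cleavage system, fell by 1.06 in rESC-RPC2 over rESC-RPC1 (adjusted p = 0.000323), and by 0.89 without replicate 2 of rESC-RPC1, when it was not called.

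Enzymes of proline, aspartate and alanine metabolism had 2 of 7 called higher against P-RPC in each rESC-RPC group. The share of all genes called higher was 12% in rESC-RPC1 and 10.7% in rESC-RPC2. Gpt2, a mitochondrial alanine aminotransferase, had signals of 499, 483 and 462 in rESC-RPC2, 542, 432 and 581 in rESC-RPC1 and 164, 166 and 197 in P-RPC. It rose by 1.56 in rESC-RPC1 (adjusted p = 6.03e-06) and by 1.46 in rESC-RPC2 (adjusted p = 8.38e-06) on the log2 scale. Glud1, glutamate dehydrogenase, rose by 1.22 in rESC-RPC1 over P-RPC, and Aldh18a1, which starts proline synthesis from glutamate, rose by 1.19 in rESC-RPC2 over P-RPC. Pc, pyruvate carboxylase, fell by 1.45 in rESC-RPC2 over rESC-RPC1 (adjusted p = 0.00152).

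Amino acid transporters moved both ways. Of 11 tested, 1 was higher and 2 lower in rESC-RPC1 over P-RPC, 2 higher and 2 lower in rESC-RPC2 over P-RPC, and 4 higher and 1 lower in rESC-RPC2 over rESC-RPC1. All genes tested had 12% higher and 9.56% lower, 10.7% and 13%, and 5.02% and 9.25% in the same comparisons. Slc7a3, a cationic amino acid transporter, had signals of 1729, 1501 and 1667 in rESC-RPC2, 415, 300.0 and 582 in rESC-RPC1 and 58.9, 46.5 and 83.1 in P-RPC. The P-RPC arrays were all under the threshold, and Slc7a3 was at least 13.3-fold higher in rESC-RPC2 and at least 3.40-fold higher in rESC-RPC1. Like Trib3, Slc7a3 passed the filter through its rESC-RPC arrays alone, so a difference from P-RPC was built into its test. Slc1a4, which carries serine and alanine, rose by 1.47 in rESC-RPC2 over P-RPC (adjusted p = 9.54e-05), with signals of 1266, 1173 and 1537 in rESC-RPC2, 540, 465 and 858 in rESC-RPC1 and 491, 464 and 468 in P-RPC. Slc7a11, the cystine/glutamate exchanger and another ATF4 target, went the other way, with signals of 186, 171 and 177 in rESC-RPC2, 211, 492 and 235 in rESC-RPC1 and 813, 805 and 1074 in P-RPC. It fell by 2.32 in rESC-RPC2 (adjusted p = 3.66e-05) and by 1.62 in rESC-RPC1 (adjusted p = 0.000495). Slc7a5, a large neutral amino acid transporter, fell by 1.16 in rESC-RPC1 over P-RPC (adjusted p = 6.52e-05).

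Among 11 other transcription factors and targets of the response, 5 were called higher in rESC-RPC1 over P-RPC, 3 higher and 2 lower in rESC-RPC2 over P-RPC, and 1 higher and 3 lower in rESC-RPC2 over rESC-RPC1. Beside these, 12% of all genes were called higher in the first, 10.7% higher and 13% lower in the second, and 5.02% and 9.25% in the third. Cebpb, a partner of ATF4, rose by 2.14 in rESC-RPC1 (adjusted p = 0.00019) and by 1.77 in rESC-RPC2 (adjusted p = 0.000603) over P-RPC. Ddit4 (REDD1), which restrains mTORC1, had signals of 777, 908 and 806 in rESC-RPC2, 2905, 5435 and 4130 in rESC-RPC1 and 1875, 2004 and 2110 in P-RPC. The 3 groups were apart, with P-RPC between the others. Ddit4 fell by 2.28 in rESC-RPC2 over rESC-RPC1 (adjusted p = 7.9e-06) and by 1.27 in rESC-RPC2 over P-RPC (adjusted p = 0.000161), and its rise of 1.01 in rESC-RPC1 over P-RPC was not called without P-RPC replicate 1 (0.97), replicate 2 of rESC-RPC1 (0.80) or replicate 3 of rESC-RPC1 (0.99). Sesn3, a relative of Sesn2, fell by 1.20 in rESC-RPC2 over P-RPC (adjusted p = 4.15e-05), with a difference of -0.12 in rESC-RPC1 over P-RPC. Vldlr, a lipoprotein receptor that ATF4 can induce, rose by 1.30 in rESC-RPC1 over P-RPC (adjusted p = 9.96e-06).

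Of 5 genes tested of the ATF6 branch and its relatives (Atf6, Atf6b, Creb3 and the proteases Mbtps1 and Mbtps2), 0 were called in rESC-RPC1 over P-RPC, with 1 at an unadjusted p under 0.05, 1 higher and 1 lower in rESC-RPC2 over P-RPC and 1 lower in rESC-RPC2 over rESC-RPC1. Ern1, which encodes the sensor IRE1, was not analysed here. Atf6, a sensor that turns into a transcription factor, fell by 1.06 in rESC-RPC2 over P-RPC (adjusted p = 3.3e-06) and by 1.03 in rESC-RPC2 over rESC-RPC1 (adjusted p = 1.11e-05), the second of which was not called without rESC-RPC2 replicate 2 (-0.98). Median centring took both to -0.98, where neither was called. Creb3, another transcription factor anchored in the ER membrane, rose by 1.30 in rESC-RPC2 over P-RPC (adjusted p = 0.000455). Of 19 ER chaperones and folding enzymes, 3 were called higher and 1 lower in rESC-RPC1 over P-RPC and 3 higher in rESC-RPC2 over P-RPC, with medians of 0.53 and 0.58. The shares of all genes called higher were 12% and 10.7%. Calr and Hyou1, both ER chaperones, were called in both groups (log2 1.33 and 1.26 in rESC-RPC1, 1.12 and 1.13 in rESC-RPC2), and P4hb, a protein disulfide isomerase, in rESC-RPC1 (1.20). Without rESC-RPC2 replicate 1 the limma count in rESC-RPC2 over P-RPC was 0, with Calr at 0.996, Hyou1 at 0.96 and Hspa5 at 0.95, all just under the fold threshold and at adjusted p of 0.011, 0.00378 and 0.000633. Calr was also not called there without P-RPC replicate 2 (0.96), nor Hyou1 with values under the threshold raised to it (0.99). Hspa5, the main ER chaperone (BiP), had signals of 15665, 13980 and 14055 in rESC-RPC2, 12930, 11393 and 17731 in rESC-RPC1 and 7112, 7702 and 6986 in P-RPC. Its rise of 1.00 in rESC-RPC2 over P-RPC (adjusted p = 8.84e-05) lay at the fold threshold, and it was also not called without P-RPC replicate 1 (0.99) or 3 (0.97) or under quantile normalization (0.96). In rESC-RPC1 over P-RPC it was 0.92 (adjusted p = 0.000175).

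Genes of ER-associated degradation and translocation had 3 of 16 called higher in rESC-RPC1 over P-RPC and 2 in rESC-RPC2 over P-RPC. Of all genes tested, 12% and 10.7% were called higher there. Sec24d, a coat protein of vesicles that leave the ER, had signals of 907, 676 and 636 in rESC-RPC2, 2104, 1183 and 2748 in rESC-RPC1 and 237, 224 and 245 in P-RPC. It rose by 3.01 in rESC-RPC1 (adjusted p = 4.62e-06) and by 1.63 in rESC-RPC2 (adjusted p = 0.000295) over P-RPC, and fell by 1.38 in rESC-RPC2 over rESC-RPC1 (adjusted p = 0.00144). Derl2, of the ER retrotranslocation machinery, rose by 1.63 in rESC-RPC1 and by 1.11 in rESC-RPC2 over P-RPC, and Edem1, which targets misfolded glycoproteins for degradation, rose by 1.32 in rESC-RPC1 over P-RPC (adjusted p = 1.66e-05). Like Herpud1, Sec24d had its arrays apart and higher in rESC-RPC1 than in rESC-RPC2.

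**Figure D4:**
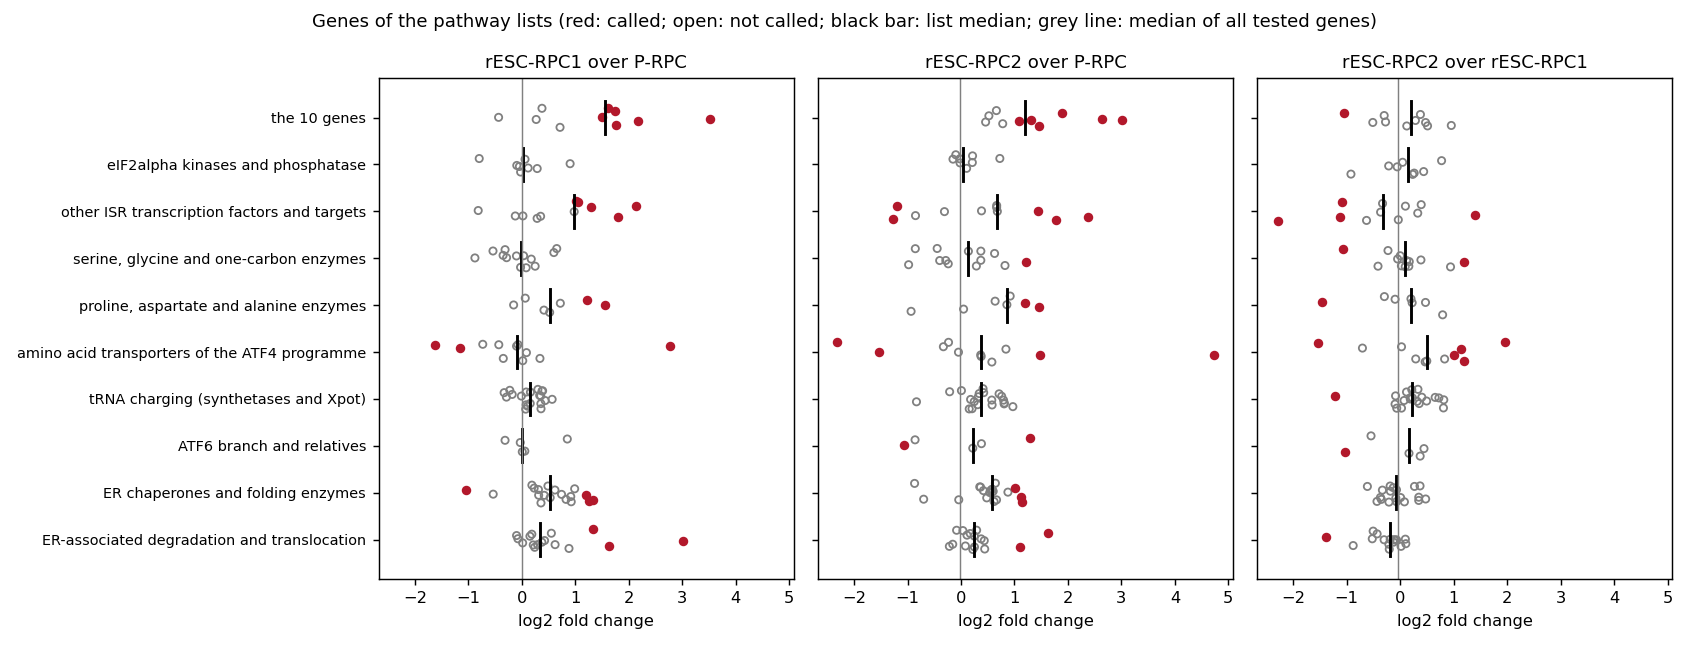
Log2 fold change (horizontal axis) of each tested gene of the 10 and of the pathway lists in 3 comparisons, red where called and open where not, with a black bar at each list's median. The median of the 10 genes (1.56 and 1.20 over P-RPC) lies right of that of the tRNA charging genes (0.16 and 0.38) and of the eIF2alpha kinases and phosphatase (0.02 and 0.04), none of which were called over P-RPC.

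The genes whose log2 signals over the 9 arrays ran most like those of 3 of the genes were named as a description, with Pearson's r, in which the 3 cell types supply much of the spread. For Atf4 they were LOC102547700 (r = 0.981), Slc7a1 (r = 0.98), a cationic amino acid transporter, and Ndufs3 (r = 0.974), of respiratory complex I. For Phgdh they were Rab31 (r = 0.997), Lox (r = 0.992) and Timp3 (r = 0.992), of which Lox and Timp3 encode proteins of the extracellular matrix. For Ddit3 they were Usp13 (r = 0.959), Tars1 (r = 0.957), which charges threonine tRNA, and Gmds (r = 0.954).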

How the data were processed

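The 9 arrays, 3 each of rESC-RPC2, rESC-RPC1 and P-RPC, carried 1 biological replicate each. The authors made 1 intensity per probe set, linear in scale, with the MAS 5.0 algorithm after background removal in GeneSpring. A scan date is not given in the sources used here. The log2 values were computed here from the deposited intensities after signals under 1 were set to 1. After trimming 2% from each end, the mean was 500.2 on every array. With 3 arrays a group, precision is limited by their number.

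Of 31099 probe sets, the 20826 that carry 1 gene symbol in the platform annotation were used to name genes. Probe sets with at least 3 of the 9 arrays at or above the median of all values (a signal of 123, log2 6.94) were kept, and the probe set with the highest mean stood for its gene. The 9956 genes were fitted together in limma 3.58.1 under R 4.3.3 (lmFit, then eBayes with its trend option), with 1 mean per group and no covariate, and p-values were adjusted over all of them. The fit was tested on simulated data. For a group with no array at the threshold, the fold is a lower bound set against the threshold or the array's own signal if higher. Promoter windows are RefSeq's for GRCr8, matched by gene ID for 10 of 10 genes and searched on both strands.

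The 10 genes, the pathway and marker lists, the motifs and the promoters printed were chosen with earlier results of these data known. From each pathway list, up to 4 called genes with the smallest adjusted p were named, plus Eif2ak3, Eif2ak4 and Atf3, which were named after their values were seen. For Atf4, Phgdh and Ddit3 the 3 genes most alike by Pearson's r were named. The alternatives were quantile normalization, median centring, no filter, a stricter filter of 6 arrays, values under the threshold raised to it, the mean of a gene's probe sets, probe sets one by one, no trend, no minimum fold, the methods' t-test, the replicate number as a block, and each array left out in turn.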

Additional observations from a re-analysis of the deposited data

Results flagged for a closer look

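The test of Trib3 used 1 of its 3 probe sets, and the other 2 also gave signals in rESC-RPCs above those in P-RPC. Probe set 1370695_s_at averaged 126 in rESC-RPC2 and 124 in rESC-RPC1, against 4.91 in P-RPC, with every rESC-RPC array above every P-RPC array. With probe sets fitted one by one in limma, it was called in rESC-RPC2 over P-RPC (log2 4.81 ± 0.64, adjusted p = 8.37e-05) and in rESC-RPC1 over P-RPC (log2 4.60 ± 0.64, adjusted p = 0.000131). This probe set passed the filter through its rESC-RPC arrays alone, so a difference from P-RPC was built into its test as well. Its P-RPC arrays lay far under the detection threshold, so these sizes are not folds in expression. Probe set 1370694_at averaged 90.2 in rESC-RPC1 and 21.2 in P-RPC, with 1 rESC-RPC1 array at the threshold. It did not pass the filter and was not tested.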

How the results depend on the processing

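The count of called genes among the 10 was 6 over P-RPC in rESC-RPC1 whichever array was left out, 5 to 6 in rESC-RPC2, and 0 to 1 in rESC-RPC2 over rESC-RPC1, where Herpud1 was the call and Atf4 took its place without replicate 3 of rESC-RPC1 or replicate 2 of rESC-RPC2. Over all genes these counts ran from 1859 to 2164, from 2100 to 2339 and from 1224 to 1454, against 2144, 2361 and 1421 with all arrays. With no minimum fold 5989, 6292 and 4805 genes were called, and 7, 10 and 5 of the 10 genes. With probe sets fitted one by one 3732, 4066 and 2422 were called. The methods' t-test called 2094, 2341 and 1333 genes at its unadjusted threshold and 2005, 2302 and 1135 after Benjamini-Hochberg adjustment, and 6, 6 and 1 of the 10 genes at both. Median centring moved Atf4 in rESC-RPC2 over rESC-RPC1 to 1.01, where it was called, and Herpud1 to -0.99, where it was not, with the median over all genes at 0.02 in place of -0.03. It also took Atf6 to -0.98 in both comparisons of rESC-RPC2, where it was not called. With values under the threshold raised to it, Trib3 differed by 0.60 in rESC-RPC2 over P-RPC and 0.63 in rESC-RPC1 over P-RPC and was not called (adjusted p = 0.0636 and 0.0553), and its difference of 0.12 in rESC-RPC2 over rESC-RPC1 reversed to -0.028, and with single arrays left out it ran from -0.34 (without replicate 2 of rESC-RPC1) to 0.49. Raising low values shortens such a difference by construction, and the cause of the other changes was not tested. The stricter filter left Trib3 out, with 5 of 9 genes called over P-RPC in each rESC-RPC group. For the log2 differences of the 10 genes, all other settings tried kept direction and call, with these exceptions. They were no minimum fold, whose counts are given above, and the changes without single arrays given beside Atf4, Herpud1 and Xbp1. Of 567 counts in pathway lists under these settings, 504 stayed within 1.5 times. Arrays of the same replicate number deviated together little (r from -0.041 to 0.27, over 0.1 in 1 of 9 pairs), so the numbers were not taken to pair them. With the replicate block 2148, 2363 and 1426 genes and 6, 6 and 1 of the 10 were called. Signals under the threshold limit Trib3, whose fold over P-RPC has no upper limit here.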
